A study of Mus musculus with 5 samples.

Results

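The transcripts described here are 10 long noncoding RNAs, of which 3 are retained in the nucleus and 7 carry small nucleolar RNAs (snoRNAs) in their introns. They were taken by name from 1 table of gene expression values in mouse germinal center B cells. The names looked up were NEAT1, MALAT1, KCNQ1OT1, GAS5, SNHG1, SNHG3, SNHG5, SNHG6, SNHG8 and SNHG12, written below as mouse symbols (Neat1, Malat1 and so on). Of these, 8 had a row among the 38924 rows of the table, and Kcnq1ot1 and Snhg8 as whole transcripts were not analysed here. The DKO group held 2 libraries, from relbfl/fl nfkb2fl/fl Cg1-Cre mice, in which both floxed alleles are removed in cells that have expressed the Cre. The WT group held 3 libraries, from Cg1-Cre littermates with no floxed allele named. Both groups thus carry the Cg1-Cre allele, a Cre expressed from the immunoglobulin gamma 1 locus, which acts mainly in B cells that have been activated in a germinal center reaction. All mice were 12 weeks old, had been immunized with sheep red blood cells and were sampled on day 7, and eGFP-positive germinal center B cells were sorted from spleen. Each library came from a small number of cells, and its RNA was amplified before sequencing. The labels number the libraries within a genotype and do not say that each is a separate mouse, so p-values measure the spread between these samples.

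RelB and the product of Nfkb2 form the transcription factor dimer of the alternative NF-kB pathway, which B cells use downstream of receptors such as CD40 and the BAFF receptor. Neat1 is the RNA scaffold around which paraspeckles assemble in the nucleus. Malat1, its neighbour on the same chromosome, is a very abundant RNA that accumulates in nuclear speckles, the stores of splicing factors. Kcnq1ot1 is an antisense RNA of an imprinted domain, made from the paternal chromosome, where it silences neighbouring genes in cis. Gas5 and the Snhg genes belong to the class of noncoding snoRNA hosts: their introns are processed into snoRNAs that guide the modification of ribosomal RNA, and their spliced exons are exported, engaged by ribosomes and, for several of them, removed by nonsense-mediated decay. Many of these hosts start with a run of pyrimidines, the 5′ terminal oligopyrimidine (TOP) motif that they share with genes for ribosomal proteins.

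The last stretch of both nuclear RNAs of the neighbouring pair is shown first, because Malat1 and Neat1 share runs of letters in it. In both RNAs a U-rich stretch and an A-rich tract near the 3′ end are known to fold into a triple helix that protects an end without a poly(A) tail. The sequences were read from the GENCODE M21 transcripts (GRCm38, chromosome 19), from base 6596 to 6691 of the 6983 bases of Malat1-201 and from base 20669 to 20771 of the 20771 bases of Neat1-201. They are written 5′ to 3′ as DNA, and capitals mark every run of at least 11 bases that the last 400 bases of both RNAs share: 2 U-rich runs and the end of the A-rich tract.
Malat1: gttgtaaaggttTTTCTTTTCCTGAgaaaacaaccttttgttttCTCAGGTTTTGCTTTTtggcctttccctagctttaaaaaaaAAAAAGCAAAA
Neat1: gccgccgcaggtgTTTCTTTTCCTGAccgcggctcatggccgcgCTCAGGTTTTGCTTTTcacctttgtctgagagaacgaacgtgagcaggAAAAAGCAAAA
Searched on the RNA strand, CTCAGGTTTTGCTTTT followed within 100 bases by AAAAAGCAAAA was found in the last 400 bases of 2 of 141767 annotated transcripts, 1 of Malat1 and 1 of Neat1. Both search runs were taken from these 2 RNAs, so finding them there was fixed in advance. Only the lack of other exact matches is a result. The shared letters are a description of these RNAs and say nothing about their levels.

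Most of the snoRNA hosts share a different feature, at the other end of the gene. RefSeq start windows (GRCm38.p6, from 40 bases before to 20 bases after the listed start) were held for 8 of the 10 names, and those of the hosts are shown, with capitals for the letters TATA between 40 and 16 bases before the start, on the gene's strand, and for the longest run of pyrimidines that opens with C within 10 bases before and 15 after the start. Gas5 has 2 listed starts: the downstream one is printed, and the upstream one has no TATA at this place and a run of 3 pyrimidines.
Gas5 (chr1:161035126-161035185, plus strand): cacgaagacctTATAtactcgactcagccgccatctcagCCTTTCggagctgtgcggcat
Snhg1 (chr19:8723447-8723506, plus strand): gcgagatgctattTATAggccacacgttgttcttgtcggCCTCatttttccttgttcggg
Snhg3 (chr4:132353667-132353726, minus strand): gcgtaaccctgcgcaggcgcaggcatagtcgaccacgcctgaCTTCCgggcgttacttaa
Snhg5 (chr9:88522878-88522937, minus strand): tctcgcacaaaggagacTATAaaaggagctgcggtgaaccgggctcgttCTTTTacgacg
Snhg8 (chr3:123508317-123508376, minus strand): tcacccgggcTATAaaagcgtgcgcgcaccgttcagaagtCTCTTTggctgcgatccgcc
Snhg12 (chr4:132308638-132308697, plus strand): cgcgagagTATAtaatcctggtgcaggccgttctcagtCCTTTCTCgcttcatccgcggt
Of these 6 hosts, 5 had a TATA at this place and Snhg3 did not, against 5.91% of all RefSeq start windows. Runs of at least 6 pyrimidines were present at the printed starts of Gas5, Snhg8 and Snhg12, against 26.15% of all windows, and the runs were shorter at Snhg1, Snhg3 and Snhg5. In the longer RefSeq windows of 300 bases, a match to the NF-kB consensus on either strand was found in Snhg8 and in no other member with a window, and 8.46% of all such windows hold one. These matches describe letters in the windows and not sites in use.

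The values are normalized counts: read counts per gene that the authors divided by 1 factor per library. The libraries held 33953377 to 57582464 reads, of which mitochondrial ribosomal RNA took 47.0% and 60.6% in DKO replicates 1 and 2 and 62.4%, 51.6% and 70.9% in WT replicates 1, 2 and 3. Outside the mitochondrial genome, 15397317 to 17701685 reads remained. Of 10 germinal center B cell markers, 9 passed the filter on low values, Bcl6 and Ms4a1 were high in every library, and Mef2b was at 0 in all 5. T cell markers had a mean log2 level over 12 genes of 5.79 and 3.47 in the DKO libraries and 3.12, 6.68 and 2.37 in the WT libraries, so DKO replicate 1 and WT replicate 2 stand above the other 3. Their summed level was 1336 to 2110 in DKO and 1407 to 2759 in WT, and none of the 12 was at 0 throughout. Naive B cell markers summed to 22847 and 11892 in DKO and 10386, 26002 and 15370 in WT, with the same pair of libraries highest. The targeted genes were lower in both DKO libraries: Relb had 56.9 and 10.7 normalized counts in DKO against 136, 171 and 117 in WT, and Nfkb2 had 298 and 73.5 in DKO against 657, 601 and 445 in WT. Their log2 fold changes were -2.43 ± 0.63 and -1.91 ± 0.51 (standard error), each with a limma adjusted p of 0.823. The exons removed by the alleles were not given in the sources used here, and RNA of cells without deletion cannot be told apart from RNA of the undeleted part of the genes. Ddx3y, from the Y chromosome, was read in DKO replicate 1 and WT replicate 1, so each genotype mixes the sexes.

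Neat1, Malat1 and Gas5 were higher in both DKO libraries than in all 3 WT libraries, and the remaining 4 transcripts with enough reads overlapped between genotypes. The mean of Neat1 in DKO was 2.46 times that in WT, that of Malat1 1.83 times and that of Gas5 1.43 times. None of these differences passed the test across the whole table: limma called 0 of the 7 members tested, and 0 of 13242 genes (0%), at an adjusted p of 0.05. The quasi-likelihood test of edgeR also called 0, and DESeq2 called 29 genes (0.219%), none of them a member. In the table as a whole, 23.4% of genes had groups that did not overlap, 12.5% with DKO higher and 11% with DKO lower. Among the 7 members 3 had non-overlapping groups with DKO higher and 0 with DKO lower.

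**Figure D1:**
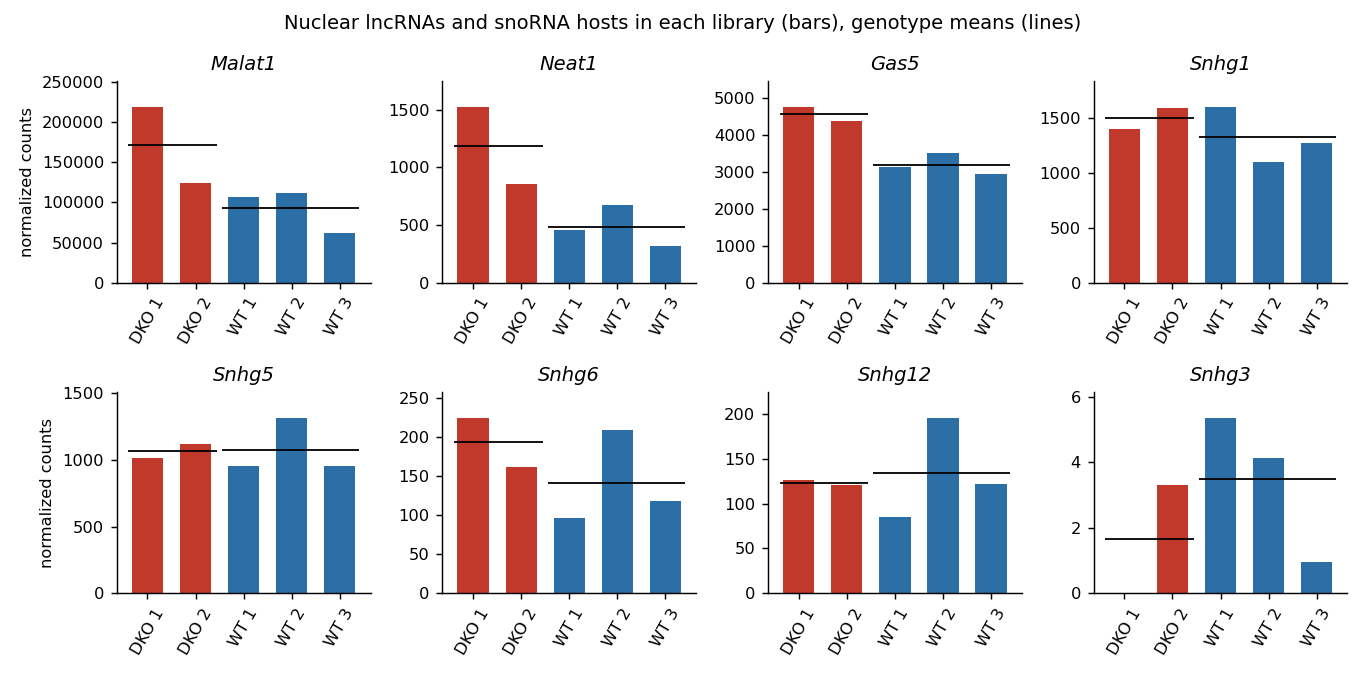
Normalized counts (vertical axes, each panel with its own scale from 0) of the 8 transcripts with a row, in the 2 DKO libraries (red bars) and the 3 WT libraries (blue bars), with black lines at the genotype means. Malat1, Neat1 and Gas5 have both DKO bars above all WT bars, and the other 5 transcripts overlap or are close to 0.

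Neat1 had 1519 and 852 normalized counts in the DKO libraries, against 455, 672 and 322 in the WT libraries. DKO replicate 1 was the highest of the 5, WT replicate 2 came nearest to the DKO libraries, and the groups did not overlap. The mean was 1186 ± 472 in DKO (SD, n = 2) and 483 ± 177 in WT (SD, n = 3). This gave a log2 fold change, on log2(value + 1), of 1.30 ± 0.35 (standard error), with a 95% interval of 0.50 to 2.10. In limma the unadjusted p was 0.00526 and the Benjamini-Hochberg adjusted p was 0.823. On the recovered reads, 335 to 1735 per library, the adjusted p of Neat1 was 0.856 with edgeR's quasi-likelihood test and 0.145 with DESeq2. Of all genes tested, 4.58% had a larger log2 fold change.

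Malat1 had 218490 and 123660 normalized counts in the DKO libraries, against 106568, 111659 and 61832 in the WT libraries. DKO replicate 1 stood far above the rest, and DKO replicate 2 was 1.11 times the highest WT library. The log2 fold change was 0.86 ± 0.40 (standard error), with a 95% interval from -0.04 to 1.77 that includes 0 and a limma adjusted p of 0.832. Malat1 RNA alone took 1.41% and 0.851% of the reads outside the mitochondrial genome in the DKO libraries, against 0.647%, 0.700% and 0.416% in the WT libraries. Wilson 95% intervals of these shares were all narrower than the gaps between libraries, and they cover counting error only. The name Malat1 stands on 3 rows of the table, of which 2 are at 0 and the third was used.

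Some other measures had their extremes in the same libraries as both nuclear RNAs. DKO replicate 1 had the highest Neat1 and Malat1 values and the lowest mitochondrial ribosomal RNA share, and WT replicate 3 had the lowest values, the highest share and the lowest T cell marker level. The 9 myeloid markers summed to 1442 and 702 normalized counts in DKO and 1424, 1181 and 330 in WT, likewise highest in DKO replicate 1 and lowest in WT replicate 3. Between these extremes the order differed, with WT replicate 1 close to DKO replicate 1 and above DKO replicate 2. The 6 erythroid markers with a row summed to 226 and 53.7 in DKO and 77.1, 78.4 and 60.5 in WT, with Hba-a1 and Alas2 higher in both DKO libraries and Hbb-bt lower. This sum was lowest in DKO replicate 2, where Neat1 and Malat1 lay above all WT libraries. The part of these cell types in the levels was not tested. With the mitochondrial ribosomal RNA share as a covariate, the log2 fold change was 0.86 for Neat1 and 0.49 for Malat1, and with a covariate for T cell markers it was 1.16 for Neat1 and 0.76 for Malat1. Among the libraries with high T cell markers, DKO replicate 1 over WT replicate 2 was 2.26 for Neat1 and 1.96 for Malat1. Among those with low T cell markers, DKO replicate 2 over the mean of WT replicates 1 and 3 was 2.19 for Neat1 and 1.47 for Malat1. Without DKO replicate 1, the log2 fold change was 0.88 for Neat1 and 0.45 for Malat1. In sorted bulk cells, more cells of a type and more RNA per cell cannot be told apart.

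**Figure D2:**
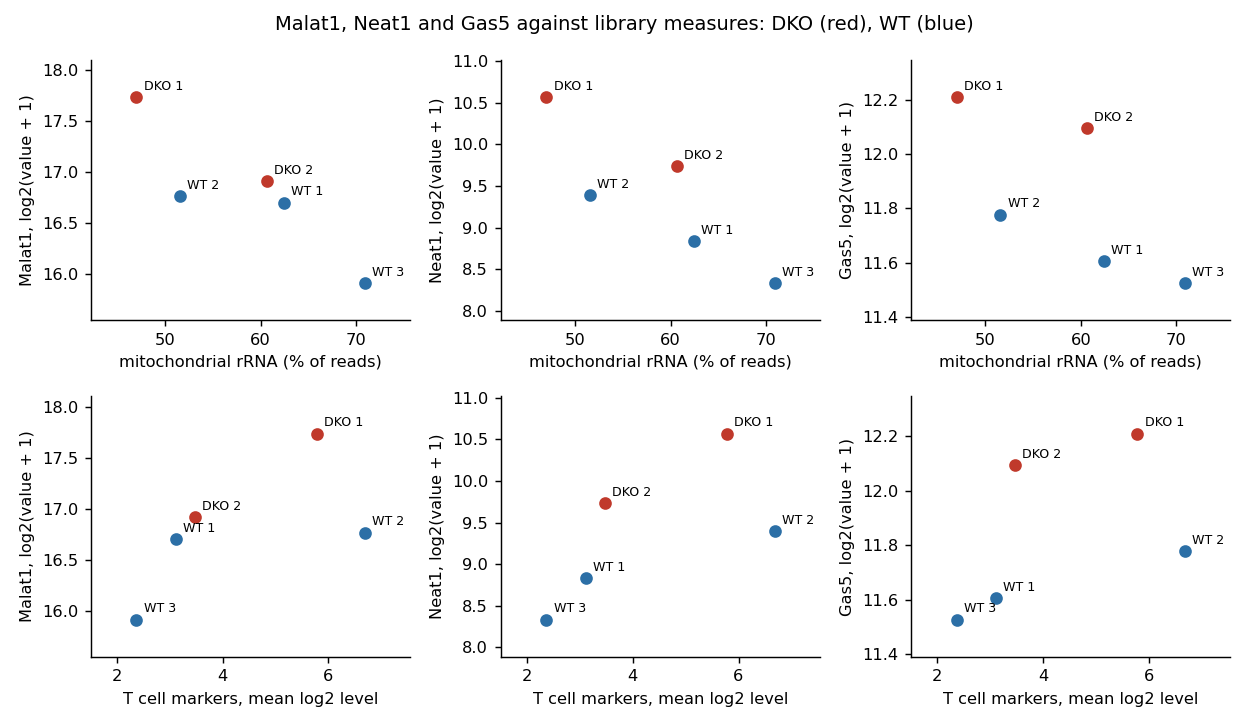
Log2(value + 1) of Malat1, Neat1 and Gas5 (vertical axes) against the mitochondrial ribosomal RNA share of reads in percent (upper row) and the mean log2 level of 12 T cell markers (lower row), 1 point for each library, DKO in red and WT in blue. DKO replicate 1 and WT replicate 2 lie at the high end of the T cell markers and the low end of the mitochondrial share, and in each panel DKO replicate 1 lies above WT replicate 2.

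Malat1 and Neat1 did not keep a fixed ratio. There were 144 and 145 Malat1 reads per Neat1 read in the DKO libraries, against 234, 166 and 192 in the WT libraries. The DKO libraries nearly coincided, and both lay below all 3 WT libraries, which spread widely. The exact 95% interval from the counts ran from 136 to 154 in DKO replicate 2 and from 154 to 180 in WT replicate 2, so the intervals of the nearest libraries of the genotypes touch. The DKO mean minus the WT mean was -53.1 (exact two-sided permutation p = 0.2, where the smallest p that 2 against 3 libraries allow is 0.1). The ratio was chosen after its values had been seen.

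**Figure D3:**
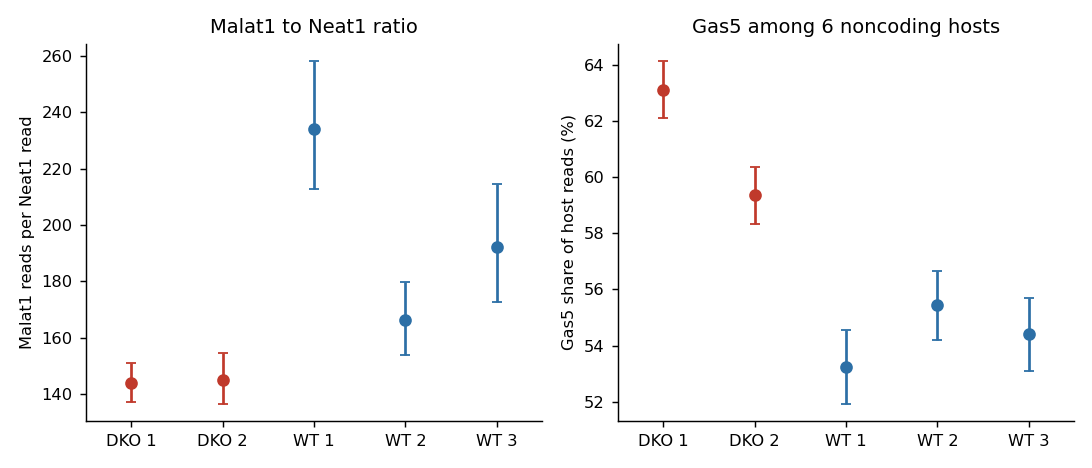
Malat1 reads per Neat1 read (left) and the Gas5 share of the reads of 6 noncoding snoRNA hosts in percent (right) in the 2 DKO libraries (red) and the 3 WT libraries (blue). Lines are 95% intervals from the read counts, and neither vertical axis starts at 0. Both DKO points lie below all WT points on the left and above all WT points on the right.

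Kcnq1ot1 had no row of its own, but 4 rows carry names of its segments (KCNQ1OT1_1, _2, _3 and _5), and these are given as rows and not as the transcript. The row KCNQ1OT1_5 had 84.1 and 88.4 normalized counts in DKO against 73.9, 57.8 and 24.0 in WT, with both DKO libraries above the WT libraries and a log2 fold change of 0.86 ± 0.54 (standard error). The row KCNQ1OT1_1 was low in both DKO libraries and in WT replicate 3, at 6.13 and 11.6 in DKO against 43.9, 40.2 and 6.73 in WT. The other 2 rows had 2 to 16 reads per library. Kcnq1, the gene on the opposite strand that gives the domain its name, had 19 reads over all 5 libraries together. Of 12 genes of the Kcnq1 imprinted domain 8 were tested, 4 with a positive and 4 with a negative log2 fold change, and the median was -0.09. The cation channel gene Trpm5 had 27.1 and 32.2 normalized counts in DKO against 119, 34.0 and 59.6 in WT, and Cd81, a tetraspanin of the B cell coreceptor, had 3241 and 3445 in DKO against 3781, 3608 and 6180 in WT. Groups of these 2 genes did not overlap, with DKO lower, and those of 1 gene did not overlap with DKO higher: Tssc4, which had 57.8 and 64.4 in DKO against 43.9, 45.4 and 56.7 in WT, and is named after its values were seen. Over all genes tested, groups did not overlap for 23.4%. None of the 8 genes of the domain passed the test, with a limma adjusted p of 0.864 for Trpm5 and 0.877 for Cd81.

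Among the 5 members tested that host snoRNAs, Gas5 was the one with groups apart. Over all genes tested, groups did not overlap for 23.4%, 12.5% with DKO higher, so a count of this size is near that share. Gas5, known from growth-arrested cells and as a decoy of the glucocorticoid receptor, had 4736 and 4373 normalized counts in the DKO libraries, against 3116, 3509 and 2949 in the WT libraries. Replicates lay close together in both groups, with a mean of 4555 ± 256 in DKO (SD, n = 2) and 3192 ± 287 in WT (SD, n = 3). Its log2 fold change was 0.52 ± 0.19 (standard error), with a 95% interval of 0.09 to 0.94. The limma p for Gas5 was 0.0233 before and 0.823 after adjustment, and 16.4% of all genes tested had a larger log2 fold change. Neat1 and Gas5 were thus 2 of 7 members with an unadjusted limma p under 0.05, against 6.06% of all genes tested, 3.69% with DKO higher and 2.37% with DKO lower.

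Gas5 varied less between libraries than the nuclear RNAs did. Its ratio of highest to lowest library was 1.61 over all 5 libraries, against 4.72 for Neat1 and 3.53 for Malat1. These ratios include the difference between genotypes. DKO replicate 1 over WT replicate 2 was 1.35 for Gas5, and DKO replicate 2 over the mean of WT replicates 1 and 3 was 1.44. The log2 fold change of Gas5 was 0.43 with the mitochondrial ribosomal RNA share and 0.48 with T cell markers as a covariate. Under all 21 alternatives it stayed between 0.43 and 0.59, and the lowest adjusted p among them was 0.416, with DESeq2. Gas5 overlaps Zbtb37 on the opposite strand, which had 680 and 407 normalized counts in DKO against 403, 611 and 188 in WT. Whether reads were assigned by strand was not given in the sources used here.

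**Figure D4:**
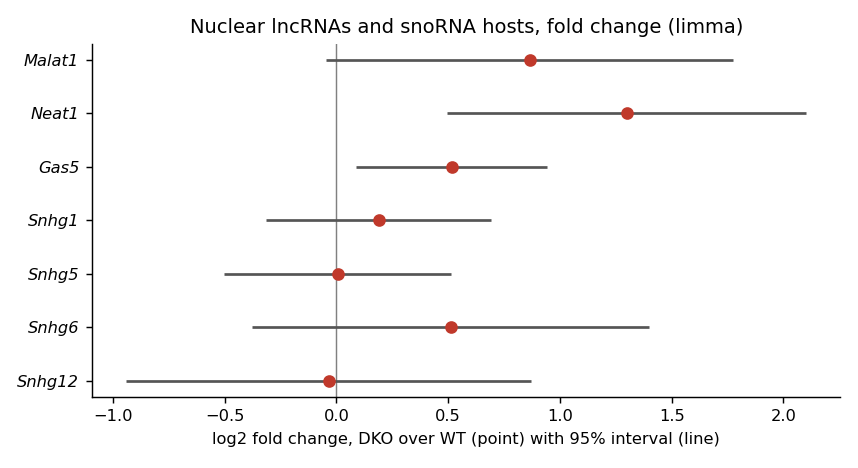
Log2 fold change of DKO over WT (horizontal axis, points) with its 95% interval from limma (lines) for the 7 transcripts tested. The intervals of Neat1, from 0.50 to 2.10, and of Gas5, from 0.09 to 0.94, lie above 0 before adjustment, and those of the other 5 transcripts include 0.

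The groups of the other hosts tested overlapped. Snhg1, host of a large group of snoRNAs, had 1400 and 1589 normalized counts in DKO against 1596, 1100 and 1274 in WT, and WT replicate 1 was the highest of the 5. Its log2 fold change was 0.19 ± 0.22 (standard error), with a 95% interval from -0.31 to 0.69. Snhg5, which carries a pair of box C/D snoRNAs, had 1015 and 1120 in DKO against 954, 1313 and 956 in WT, and both DKO libraries lay within the WT range. The 95% interval of its log2 fold change ran from -0.50 to 0.51 around 0.01.

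Snhg6, a host on the opposite strand of Mcmdc2, had 224 and 162 normalized counts in DKO against 96.4, 208 and 118 in WT. WT replicate 2 lay between the DKO libraries, and the other 2 WT libraries lay below both. Its log2 fold change of 0.51 ± 0.39 (standard error) was of the size seen for Gas5, with a wider interval from -0.38 to 1.40. Snhg12, host of Snora16a, Snora44, Snora61 and Snord99, had 126 and 121 in DKO against 84.6, 195 and 122 in WT, where both DKO libraries lay within the WT range. For Snhg12 the log2 fold change was -0.03 ± 0.40 (standard error), with a 95% interval from -0.94 to 0.87. The intervals of Snhg1, Snhg6 and Snhg12 still include changes as large as that of Gas5. Mcmdc2, which overlaps Snhg6, had 505 reads over all libraries. Whether reads were assigned by strand was not given, so reads of the overlap could have been counted for either gene.

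WT replicate 2 was the highest WT library for 6 of the 7 members tested, with Snhg1 the exception, and it also had the highest T cell marker level. Without WT replicate 2, Snhg5 and Snhg6 joined Neat1, Malat1 and Gas5, so that 5 members in place of 3 had groups that did not overlap, all with DKO higher. With 2 against 2 libraries more genes separate: 41.3% of all genes tested then had groups that did not overlap, 21% with DKO higher. Snhg12 then had a log2 fold change of 0.28, of the other sign than with all libraries.

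Snhg3 was close to the limit of detection, with 0 and 4 reads in the DKO libraries against 5, 4 and 1 in the WT libraries. A count of 0 in DKO replicate 1 allows up to 3 reads, or 2.63 normalized counts, so no difference was detectable at this depth. It was left out of the test by the minimum mean value of 10. Snhg3 shares its strand and part of its locus with Rcc1, a chromatin-bound exchange factor for Ran with 422 and 561 normalized counts in DKO against 518, 396 and 751 in WT, and reads of the overlap could have been assigned to either gene.

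As a share of the reads of the 6 noncoding hosts with a row, Gas5 took more in the DKO libraries. It held 63.1% and 59.4% of those reads in DKO against 53.2%, 55.4% and 54.4% in WT, with Wilson 95% intervals from 58.3% to 60.4% in DKO replicate 2 and from 54.2% to 56.7% in WT replicate 2. The groups did not overlap. The mean was 61.2 ± 2.67% in DKO (SD, n = 2) and 54.4 ± 1.10% in WT (SD, n = 3), a difference of 6.88 percentage points (exact two-sided permutation p = 0.1, the smallest that 2 against 3 libraries allow). Snhg5 held 13.5% and 15.2% of the host reads in DKO against 16.3%, 20.7% and 17.6% in WT, with both DKO libraries below the WT libraries. Snhg1 held 18.7% and 21.6% in DKO against 27.3%, 17.4% and 23.5% in WT, where the groups overlap. Shares of 1 total are not independent of each other, and these were chosen after the values had been seen.

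Per kilobase of exon, the order of the members by level was the following over the 5 libraries. Malat1 led with a mean of 17821 normalized counts per kilobase, from 8855 to 31289. Gas5 followed at 994 (784 to 1260), then Snhg5 at 619 (551 to 759) and Snhg1 at 469 (370 to 538). Snhg6 stood at 141 (84.1 to 196), Snhg12 at 54.0 (35.2 to 81.2) and Neat1 at 36.8 (15.5 to 73.1), with Snhg3 lowest at 2.79 (0 to 5.43). Ranges of neighbours in this order did not overlap, except those of Snhg12 and Neat1. For that pair the order differed between genotypes: Neat1 averaged 57.1 ± 22.7 and Snhg12 51.4 ± 1.62 per kilobase in DKO (SD, n = 2), not apart beyond their spread, while in WT Neat1 averaged 23.2 ± 8.50 and Snhg12 55.7 ± 23.4 (SD, n = 3), with Neat1 lower in all 3 libraries. Lengths are the joined exons of all GENCODE M21 transcripts of a gene (3760 bases for Gas5 and 2969 for Snhg1), and the annotation behind the counts was not given. A member whose reads came from shorter forms would have a higher level per kilobase, so the order rests on these lengths. For Neat1 the long form of 20771 bases was used, and a count that came mostly from the short form would give a higher level per kilobase.

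The rows of snoRNAs inside these hosts held few or no reads. Of 28 snoRNA genes in the introns of the 7 hosts, 10 had a row under that name, of which 6 were at 0 in every library and 2 were tested. Further rows carry provisional names, and by position in the annotation all 7 snoRNA rows inside Gas5 and all 8 inside Snhg1 were at 0 reads, while Gas5 itself had 2911 to 5408 and Snhg1 1066 to 1924 reads per library. The pair with the most reads are shown in full from GENCODE M21, Snord87 of Snhg6 (chromosome 1) with its boxes C and D in capitals and Snora24 of Snhg8 (chromosome 3) with its ACA box in capitals.
Snord87: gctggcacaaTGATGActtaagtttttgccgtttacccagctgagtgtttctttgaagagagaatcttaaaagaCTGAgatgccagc
Snora24: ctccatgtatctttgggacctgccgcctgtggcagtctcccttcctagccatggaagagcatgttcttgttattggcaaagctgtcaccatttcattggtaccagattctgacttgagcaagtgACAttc
Snord87 had 21 and 23 reads in DKO against 10, 30 and 9 in WT, with the DKO libraries inside the WT range. Snora24 had 16 and 37 reads in DKO against 29, 13 and 19 in WT, and overlapped likewise. Snora61 of Snhg12 had 11 reads in all. How the authors counted a snoRNA inside its host was not given, so the rows at 0 do not show that the snoRNAs were absent.

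Genes that share a function with the members were taken as lists and are described by counts, with no test of a list. Over all 13242 genes tested, 50% had a positive log2 fold change and the median was 0.0013. Groups did not overlap for 23.4% of them, 12.5% with DKO higher and 11% with DKO lower. Among the 7 members 6 were positive, and the median was 0.51. It was 0.28 without DKO replicate 1, 0.33 without WT replicate 1 and 0.29 with the mitochondrial covariate.

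**Figure D5:**
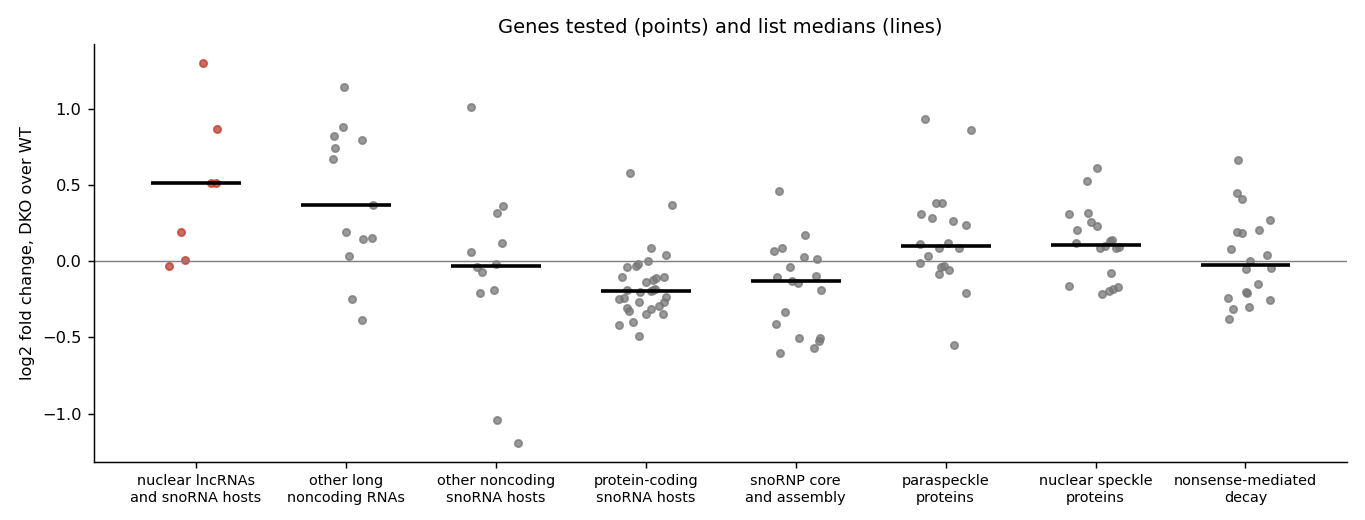
Log2 fold change of DKO over WT (vertical axis) for each gene tested (points) in the nuclear lncRNAs and snoRNA hosts (red) and 7 related lists (grey), with list medians as black lines. The medians run from -0.20 for protein-coding snoRNA hosts to 0.51 for the members, and single genes of most lists lie on both sides of 0.

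Of 12 other noncoding snoRNA hosts tested, 5 had a positive and 7 a negative log2 fold change, with a median of -0.03. The groups did not overlap for 1 with DKO higher and 1 with DKO lower, against 12.5% and 11% of all genes tested. Snhg16, under its older row name 1810032O08RIK, had 70.9 and 47.1 normalized counts in DKO against 32.1, 28.9 and 24.0 in WT, with a log2 fold change of 1.01 ± 0.50 (standard error). Dancr, a host known for keeping progenitor cells undifferentiated, went the other way with 11.4 and 9.91 in DKO against 23.6, 32.0 and 22.1 in WT. Zfas1, which hosts snoRNAs at the antisense side of Znfx1, had 341 and 271 in DKO against 200, 275 and 240 in WT. The hosts of this class thus stood on both sides, and none passed the test. Their median took either sign over the 21 alternatives, from -0.19 without DKO replicate 2 to 0.17 without both DKO replicate 1 and WT replicate 2, and it was 0.040 when scaled on reads outside the mitochondrial genome.

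Protein-coding snoRNA hosts, most of them genes of ribosomal proteins and translation factors, lay mostly below 0. Of 32 tested, 28 had a negative and 4 a positive log2 fold change, with a median of -0.20. The groups of 6 did not overlap, all with DKO lower, against 11% of all genes tested with DKO lower. The elongation factor gene Eef1b2 had 1723 and 1977 normalized counts in DKO against 2560, 2575 and 2655 in WT, with a log2 fold change of -0.49 ± 0.19 (standard error). The ribosomal protein gene Rps3 had 6997 and 8535 in DKO against 9501, 9275 and 12078 in WT. Eef2, the translocation factor of elongation, had 23303 and 26311 in DKO against 32722, 30442 and 36369 in WT. In the other direction, the helicase gene Eif4a2 had 9636 and 6997 in DKO against 4526, 7480 and 4919 in WT, where the groups overlap. The limma adjusted p was 0.823 for Eef1b2, and 0 of the 32 were called. Without DKO replicate 1 the median of the list was -0.039, and without that library and WT replicate 2 it was -0.068. Ribosomal protein genes have many processed copies in the genome, and how reads shared with them were assigned was not stated. The T cell marker level and the mitochondrial share differ between these libraries as given above, and their part in the list was not tested.

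Proteins that mature and pack snoRNAs pointed to the same side. Of 19 genes of the snoRNP core and its assembly, 13 had a negative and 6 a positive log2 fold change, with a median of -0.13. Groups did not overlap for 5, all with DKO lower, against 11% of all genes tested with DKO lower. Ruvbl1, an ATPase of the assembly machinery, had 272 and 424 normalized counts in DKO against 495, 509 and 513 in WT. Nhp2, a core protein of box H/ACA particles, had 151 and 244 in DKO against 265, 254 and 369 in WT. Nolc1, a chaperone of snoRNPs in the nucleolus, had 716 and 1327 in DKO against 1345, 1324 and 1559 in WT, where DKO replicate 1 alone is low. DKO replicate 1 had the lowest value in all 3 genes, and it is also the library with the higher T cell and naive B cell markers of its genotype. Without it the median of the 19 genes was -0.0015.

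Genes for proteins of the bodies where Neat1 and Malat1 reside lay on both sides of 0. Of 20 paraspeckle proteins, 13 had a positive and 7 a negative log2 fold change, with a median of 0.10. Groups did not overlap for 5, 4 with DKO higher and 1 with DKO lower, against 23.4% of all genes tested. Rbm4b, an RNA-binding protein with a close paralog in Rbm4, had 1978 and 1841 normalized counts in DKO against 1004, 1620 and 617 in WT. Rbm12 had 1940 and 1419 in DKO against 1241, 1132 and 543 in WT. Log2 fold changes were 0.93 ± 0.35 for Rbm4b and 0.86 ± 0.35 for Rbm12 (standard error). Matr3, a protein of the nuclear matrix, was on the other side with 3175 and 2239 in DKO against 4388, 4109 and 3305 in WT and a log2 fold change of -0.55 ± 0.23 (standard error). The limma adjusted p of Rbm4b, Rbm12 and Matr3 was 0.823 each. Without DKO replicate 2 the median of the 20 was -0.020, and without DKO replicate 1 it was 0.26.

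Of 20 nuclear speckle proteins, 14 had a positive and 6 a negative log2 fold change, with a median of 0.11. Groups did not overlap for 7, 5 with DKO higher and 2 with DKO lower, against 23.4% of all genes tested. Srrm2 and Son, the scaffold proteins of speckles, had non-overlapping groups with DKO higher. Srrm2 had 23452 and 26400 normalized counts in DKO against 17926, 19141 and 15112 in WT, and Son had 15172 and 15441 in DKO against 12563, 12035 and 6629 in WT. Log2 fold changes were 0.52 ± 0.22 for Srrm2 and 0.61 ± 0.29 for Son (standard error), with limma adjusted p-values of 0.823 and 0.836.

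Of 20 factors of nonsense-mediated decay, the pathway known to degrade spliced Gas5, 9 had a positive and 11 a negative log2 fold change, with a median of -0.02 that took either sign over the 21 alternatives, from -0.096 without WT replicate 2 to 0.13 without WT replicate 3. Scaling on reads outside the mitochondrial genome gave 0.047, and the mitochondrial covariate 0.11. Groups did not overlap for 3 factors with DKO higher and 1 with DKO lower, against 12.5% and 11% of all genes tested. Smg6, the endonuclease of the pathway, had 1666 and 1732 normalized counts in DKO against 1152, 1283 and 1300 in WT, without overlap. Smg1, the kinase of Upf1, had 13274 and 11406 in DKO against 10836, 9944 and 4377 in WT, again without overlap and with WT replicate 3 far below the rest. Upf3b, which links the pathway to exon junctions, had 674 and 619 in DKO against 1036, 852 and 673 in WT, where WT replicate 3 lay between the DKO libraries. None of the 20 passed the test, and the limma adjusted p of Smg6 was 0.823.

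Among 13 other long noncoding RNAs tested, 11 had a positive and 2 a negative log2 fold change. This list also holds Rn7sk, Rpph1 and Terc, which are annotated as other classes of noncoding RNA. The 2 negative genes are Rn7sk and Rpph1. Groups did not overlap for 5, all with DKO higher, against 12.5% of all genes tested with DKO higher. The median log2 fold change was 0.37. That median depended on the processing: it was 0.75 without DKO replicate 2, 0.11 with edgeR, 0.12 with DESeq2 and 0.18 with a length and GC correction. Dleu2, host of a microRNA pair deleted in B cell leukaemia, had 5447 and 4030 normalized counts in DKO against 3772, 2513 and 2706 in WT. Pvt1 had 243 and 249 in DKO against 179, 117 and 135 in WT. Mir17hg, host of a microRNA cluster active in dividing B cells, had 426 and 316 in DKO against 131, 266 and 227 in WT, and the X-linked Ftx had 1096 and 1094 in DKO against 464, 956 and 628 in WT. The log2 fold changes were 0.67 ± 0.24 for Dleu2, 0.79 ± 0.31 for Pvt1, 0.88 ± 0.35 for Mir17hg and 0.75 ± 0.30 for Ftx (standard error). Each had an unadjusted limma p under 0.05 and an adjusted p of 0.823.

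The genes whose pattern over the 5 libraries was most like that of a member were found by the root mean square difference of log2(value + 1), each gene centred on its own mean. For Neat1 these were Lnx1, Cnbd2 and Rbm4, with differences of 0.103, 0.133 and 0.133. Rbm4, the paralog of Rbm4b, had 382 and 283 normalized counts in DKO against 125, 198 and 95.1 in WT, the same order of libraries as Neat1. For Malat1 the nearest were Slc18a2, Fnbp1l and Gabbr1, with differences of 0.0663, 0.0688 and 0.0887. Slc18a2, a vesicular monoamine transporter gene, had 229 and 137 in DKO against 119, 133 and 72.1 in WT. For Gas5 the nearest were Slc23a2, Clcn3 and Rbm5, with differences of 0.0392, 0.0431 and 0.0452. Rbm5, a splicing regulator, had 12147 and 10431 in DKO against 7996, 8723 and 7678 in WT. Among 13242 genes over 5 libraries such near matches are chosen for their likeness, and they are given as a description with no test.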

How the data were processed

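RNA was measured by RNA-seq in 5 libraries of sorted germinal center B cells (2 DKO, 3 WT), after amplification of total RNA with the NuGEN Ovation RNA-Seq System, per the labels' protocols. Cufflinks 2.0.2, TopHat2 2.0.4 and CASAVA 1.8.2 are listed with mm9 in the submitters' processing notes, with no role stated. A counting tool, strand setting or annotation was not given in the sources used here. Deposited values are a signal, read counts that the authors divided by 1 factor per library: within 0.01 of a whole number, 100% of the values were multiples of 1 step per library (0.826 to 1.07 normalized counts), and the reads recovered so sum to 33953377 to 57582464 per library. The main test, two-sided, was limma 3.58.1 (R 4.3.3, mean-variance trend) on log2(value + 1), fitted to the 13242 genes with a mean of at least 10, with Benjamini-Hochberg adjustment over all of them. Recovered reads were also tested with edgeR 4.0.16 and DESeq2 1.42.0. The limma and edgeR fits were also run on simulated data, and the DESeq2 fit was not. Names were matched to GENCODE M21 and RefSeq for 37669 of 38924 rows, and 408 rows carry a repeated name. Every member was named whatever its value, and of each related list values were given for at most 4 genes with the smallest p. The members, lists and alternatives were chosen with earlier results of these data known. Intervals and limits of detection cover counting error only.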

Additional observations from a re-analysis of the deposited data

How the results depend on the processing

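No member was called under any of the 21 alternatives, which gave log2 fold changes of 0.86 to 1.72 for Neat1, 0.45 to 1.28 for Malat1, 0.43 to 0.59 for Gas5, 0.065 to 0.33 for Snhg1 and 0.19 to 0.83 for Snhg6, all positive. Across all genes, limma and edgeR each called 0 (803 and 748 at an unadjusted p under 0.05), against 29 by DESeq2, 36 with a replicate block (14 higher and 22 lower in DKO), 3 with the T cell marker covariate, 1 with the mitochondrial ribosomal RNA covariate, 2 with both libraries high in T cell markers (DKO replicate 1 and WT replicate 2) left out, and 0 to 1 with 1 library left out. The labels do not say whether equal replicate numbers pair the samples. Correlations of deviations from the group mean (0.005 for number 1 and -0.280 for number 2) cannot decide it. With 2 DKO libraries the deviations of 1 mirror those of the other. WT replicate 3 has no partner in the block. The log2 fold change of Snhg5, 0.01 in the main analysis, was -0.0019 with TMM scaling, -0.018 with edgeR, -0.014 with DESeq2, -0.070 with the replicate block, -0.14 with a length and GC correction, -0.039 with the T cell covariate, -0.096 with the mitochondrial covariate, 0.23 without that pair, and -0.072 to 0.16 with 1 library left out. That of Snhg12, -0.03 in the main analysis, was 0.035 when scaled on reads outside the mitochondrial genome, 0.24 without that pair of libraries, 0.062 with library weights and -0.32 to 0.28 with 1 library left out. The members with non-overlapping groups numbered 3 to 5 with 1 library left out (35.8% to 52.8% of all genes tested), 5 without that pair (62.9%) and 2 with quantile scaling (23.1%). The Gas5 share of host reads differed by 4.99 to 8.77 percentage points over its 6 alternatives, which were chosen after seeing the data. The causes were not tested. Depth limits Snhg3, and the number of libraries, 2 against 3, limits every test. Why the snoRNA rows were low or at 0 was not tested.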
